A study of Mus musculus with 6 samples.

Results

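Mature myelinating oligodendrocyte nuclei were taken from droplet single-nucleus RNA-seq of mouse forebrain at postnatal day 16 (P16). They were chosen by rule from raw UMI counts (unique molecular identifiers, each marking 1 captured RNA molecule). A nucleus was a member if it held at least 3 UMIs in sum of Mag, Mog, Aspa and Opalin, with at least 1 of Mog, and at most 1 UMI each of Enpp6, of Gpr17, Bmp4 and Neu4 in sum, of Pdgfra, and of the neuronal genes Slc17a7, Slc17a6, Gad1 and Gad2 in sum. Its mitochondrial share of UMIs had to be under 10%. The rule found 1339 members among 75867 nuclei under that mitochondrial limit, of 75878 barcodes in all, or 1.76% (95% exact Clopper-Pearson interval 1.67 to 1.86%).

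The study compared 3 WT and 3 Npc1-/- mice. The null mice carried the Npc1nih allele, a germline loss of the sterol transporter NPC1 that is present in every cell. They were F1 hybrids of Npc1+/- parents of BALB/cJ and C57BL6/J stock, and the WT mice were littermates. Nuclei came from flash-frozen forebrain, and each mouse gave 1 library. The deposited counts are 1 matrix whose barcodes end in a library number from 1 to 6, and the sources used here give no key from that number to a mouse. WT was therefore not compared with Npc1-/-. The 6 libraries were described singly or by their lowest, median and highest value, never as replicates of a group, and no p-value was computed. The members were also chosen by their measured values, so each difference between classes of nuclei below is a description. Intervals cover counting error only.

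Oligodendrocytes wrap axons in myelin, a stack of membrane that is rich in cholesterol and galactolipids. They arise from oligodendrocyte precursor cells (OPCs), pass through a short-lived newly formed stage marked by the choline phosphodiesterase Enpp6, and then switch on the genes of compact and outer myelin. Mog and Mag encode glycoproteins of the outer and the axon-facing myelin membrane. Aspa encodes the enzyme that frees acetate from N-acetylaspartate, and Opalin a membrane protein of oligodendrocytes. At P16 the mouse forebrain is still myelinating, so nuclei of all stages were present.

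The 250 bases before the annotated start of 7 genes are shown, because Mag, Mog, Aspa and Opalin chose the members and Mobp, Hapln2 and Anln are described below as high in them. They were read 5′ to 3′ on the gene's strand from RefSeq (GRCm38.p6), taking the first start listed for each gene. Capitals mark either of 2 motifs on either strand. They are the letters CTGGNAC (like the type bound by MYRF, the myelin gene regulatory factor) and ACAAAG (a type bound by SOX proteins). N was any base, so a match to the first motif need not be a form that MYRF binds.
Mag, chr7:30914864-30915113, minus strand: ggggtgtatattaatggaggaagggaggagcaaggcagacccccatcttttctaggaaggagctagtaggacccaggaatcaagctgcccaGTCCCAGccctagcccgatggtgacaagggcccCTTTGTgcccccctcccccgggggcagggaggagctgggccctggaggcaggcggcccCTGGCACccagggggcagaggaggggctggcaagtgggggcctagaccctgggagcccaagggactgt
Mog, chr17:37023399-37023648, minus strand: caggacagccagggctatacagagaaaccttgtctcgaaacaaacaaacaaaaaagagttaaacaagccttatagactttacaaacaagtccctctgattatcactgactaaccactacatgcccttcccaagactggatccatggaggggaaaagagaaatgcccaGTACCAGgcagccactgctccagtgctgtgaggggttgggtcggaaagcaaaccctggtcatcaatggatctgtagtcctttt
Opalin, chr19:41077114-41077363, minus strand: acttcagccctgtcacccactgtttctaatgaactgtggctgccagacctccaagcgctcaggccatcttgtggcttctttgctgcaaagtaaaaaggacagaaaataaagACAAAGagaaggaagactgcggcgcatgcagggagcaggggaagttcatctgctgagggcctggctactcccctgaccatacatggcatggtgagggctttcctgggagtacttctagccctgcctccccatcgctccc
Aspa, chr11:73324638-73324887, minus strand: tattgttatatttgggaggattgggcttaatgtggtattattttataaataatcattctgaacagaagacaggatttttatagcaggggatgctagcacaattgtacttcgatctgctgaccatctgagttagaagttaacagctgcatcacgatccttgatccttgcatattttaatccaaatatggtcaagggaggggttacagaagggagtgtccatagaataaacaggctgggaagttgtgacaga
Mobp, chr9:120149492-120149741, plus strand: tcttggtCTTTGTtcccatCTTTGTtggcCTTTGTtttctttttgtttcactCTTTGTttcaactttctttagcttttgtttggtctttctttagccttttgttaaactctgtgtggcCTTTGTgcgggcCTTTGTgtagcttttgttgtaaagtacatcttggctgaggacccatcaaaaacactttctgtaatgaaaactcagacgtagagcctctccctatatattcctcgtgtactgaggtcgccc
Hapln2, chr3:88027512-88027761, minus strand: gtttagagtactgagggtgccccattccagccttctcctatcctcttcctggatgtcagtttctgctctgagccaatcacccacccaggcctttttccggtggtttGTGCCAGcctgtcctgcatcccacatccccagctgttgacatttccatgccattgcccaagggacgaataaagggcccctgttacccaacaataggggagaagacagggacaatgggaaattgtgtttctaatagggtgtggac
Anln, chr9:22389207-22389456, minus strand: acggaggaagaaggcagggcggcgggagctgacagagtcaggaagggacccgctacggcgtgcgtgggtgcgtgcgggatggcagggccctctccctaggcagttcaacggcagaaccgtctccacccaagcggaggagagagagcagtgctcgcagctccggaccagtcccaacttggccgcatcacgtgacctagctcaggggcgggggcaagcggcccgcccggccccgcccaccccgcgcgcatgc
The first motif stood in 4311 of 27025 promoters of this length (15.95%) and the second in 4447 (16.5%). Mag held 2 matches to the first and 1 to the second, Mog and Hapln2 each held 1 match to the first, Opalin 1 to the second and Mobp 6 to the second. Aspa and Anln held neither, nor did Ermn and Enpp6. Prr5l held 1 match to the second, and Tnr, a gene low in members, 1 to each. These last 4 were searched but are not shown. These matches are letters in a window, and no binding was measured.

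Members were unequally spread over the libraries. Libraries 1 to 6 held 397, 438, 79, 70, 292 and 63 of them. As a share of the nuclei kept, these were 2.88% (2.61 to 3.18%), 2.72% (2.47 to 2.98%), 0.534% (0.423 to 0.665%), 0.574% (0.448 to 0.725%), 2.71% (2.41 to 3.03%) and 0.767% (0.590 to 0.980%). Newly formed nuclei (at least 3 UMIs of Enpp6 and at most 1 of Mog, Aspa and Opalin in sum, 682 in all) took 0.499 to 1.44% of a library. OPC nuclei (at least 2 UMIs of Pdgfra and 1 of Cspg4, at most 1 UMI each of the mature markers in sum and of Enpp6, 675 in all) took 0.599 to 1.04%. Newly formed nuclei also held at most 1 UMI of Pdgfra. OPC nuclei also held at most 1 UMI each of Gpr17, Bmp4 and Neu4 in sum and of Dcn and Col1a2 in sum. Microglia nuclei held at least 3 UMIs of Csf1r, Cx3cr1 and P2ry12 in sum, and astrocyte nuclei 3 of Aqp4 and Gja1. All these classes met the members' limits on neuronal UMIs and mitochondrial share. Of mature and newly formed nuclei together, the mature ones made up 47.6% (39.8 to 55.5%) at the lowest and 73.4% (69.4 to 77.1%) at the highest library. The gap between the highest and the lowest mature share was thus outside counting error. Whether it follows genotype could not be assessed, because no library can be tied to a mouse.

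**Figure D1:**
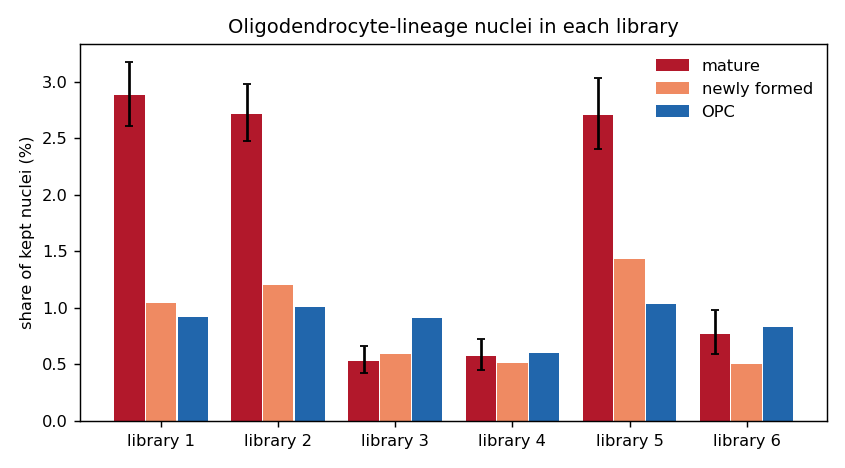
Share of kept nuclei (%, y axis) in each of the 6 libraries (x axis) for mature, newly formed and OPC nuclei, with exact 95% binomial intervals on the mature bars. The mature share ran from 0.534% in library 3 to 2.88% in library 1. The newly formed share ran from 0.499% in library 6 to 1.44% in library 5, and the OPC share from 0.599 to 1.04%.

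The libraries held 51343653 to 107583300 UMIs in all, and the members' median was 4835 UMIs and 2279 genes per nucleus, with library medians of 4530.5 to 5052 UMIs. Newly formed nuclei had a median of 4691.5 UMIs, OPC nuclei 3890 and microglia nuclei 2955. Altogether the members gave 7400729 UMIs, from 339619 in library 6 to 2476230 in library 2. Among all nuclei 631 barcode sequences recurred in more than 1 library. They were carried by 27 members, and no barcode sequence was a member in more than 1 library.

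The label was checked on genes that the rule did not use. With every nucleus thinned to 2000 UMIs, which left 1277 members, Mbp, a main protein of compact myelin, was seen in 98.4% of members, 91.5% of newly formed, 51.5% of OPC and 53.0% of microglia nuclei, which should not make it. Its detection therefore says little about the label. Mobp was seen in 93.4, 25.2, 17.2 and 20.1% of the same classes, Cldn11 in 53.4, 26.6, 4.84 and 7.98% and Mal in 33.0, 4.90, 4.06 and 5.55%. The defining markers of other cells were present in members below their level in their own class where that was measured. The 7 microglia markers summed to 53.0 to 115 CPM (a class of nuclei summed and its UMIs scaled to a fixed total) in the 6 libraries of members against 1522 CPM in microglia nuclei. The 8 astrocyte markers summed to 839 to 2227 CPM, against 11349 CPM in astrocyte nuclei. The 10 endothelial markers summed to 189 to 627 CPM and the 8 fibroblast and pericyte markers to 81.2 to 162 CPM. The 26 neuronal and synaptic genes summed to 16407 CPM in members, below the 29139 CPM of microglia nuclei. Both classes were chosen with at most 1 UMI of the neuronal genes of the rule, and microglia nuclei were shallower. This difference therefore does not check the label. Most members (1205, or 89.99%) held 2 or more UMIs of astrocyte markers, 456 (34.1%) of endothelial, 243 (18.1%) of fibroblast and pericyte and 164 (12.2%) of microglia markers. The 39 members that also met the microglia rule and the 38 that met the astrocyte rule were kept. Doublets were not called. Leaving out nuclei with 2 or more UMIs of microglia, endothelial or fibroblast and pericyte markers left 661 members, a filter that did not use the astrocyte markers, and the part of free RNA or doublets in the removed ones was not tested.

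The members were uneven near the threshold of the rule. The median marker sum was 13 UMIs, and 1133 members held 5 or more. The 141 members at the limit of 3 UMIs had 2873 CPM of Mbp, 717 of Mobp and 5682 of the neuronal RNA Meg3. Just outside, the 490 nuclei at 2 UMIs had 1609, 294 and 6171 CPM. Well inside, members with 5 or more UMIs had 7143, 3330 and 2187 CPM. The nuclei at the limit therefore lay nearer to those outside it than to the bulk of the members. On the other limits, 323 nuclei missed only that on Enpp6, 246 only that on Mog and 535 only that on neuronal UMIs. Nuclei with 2 Enpp6 UMIs (142) had 7228 CPM of Mbp and 592 of Tcf7l2, against 7168 and 424 CPM in the 277 members with 1 such UMI. The 181 nuclei with 3 or more Enpp6 UMIs had 7102 CPM of Mbp and 1403 of Tcf7l2. Nuclei with 2 neuronal UMIs (239) were deeper, with a median of 7308 UMIs against 5219 at 1 neuronal UMI.

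Npc1, the gene lost in the null mice, was seen in the members of each library. Its level was 59.6, 70.3, 41.0, 47.4, 78.0 and 70.7 CPM in libraries 1 to 6. With no key from library to mouse these levels check no label, and whether the tags counted lie beyond the change in the Npc1nih allele was not tested.

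To find what set the members apart from the stage before them, UMIs were summed per class and library, and the log2 difference of CPM + 5 was taken within each library. A gene counted as higher or lower only if it was at least 2-fold apart in the same direction in all 6 libraries. Of 7651 genes with at least 20 CPM in either class, the genes of the class rules left out, 229 were higher in mature nuclei (2.99%) and 202 lower (2.64%). The median gene differed by -0.05 on the log2 scale. Against OPC nuclei, 406 of 8073 genes were higher (5.03%) and 339 lower (4.2%), and the median gene differed by -0.12, so that differences from OPC nuclei are read against that shift. Both comparisons use the same mature nuclei.

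Genes of the class rules, among them Mag, Mog, Aspa and Opalin, were left out and could not rank here. Of the rest, the 10 with the largest gaps from newly formed nuclei held none of the compact myelin genes listed further below. Prr5l, which encodes a partner of the kinase complex mTORC2, had 788 CPM at the lowest, 914 at the median and 1147 at the highest library in mature nuclei, and 3.97, 10.7 and 15.2 CPM in newly formed ones. Its median log2 difference was 5.84 (5.66 to 6.78 over libraries). Sec14l5, of the SEC14 family of lipid-binding proteins, had 359 to 479 CPM against 0 to 13.3 (median log2 difference 5.64). Cdh19, a cadherin, had 292 to 709 against 0 to 16.6 CPM (5.36), and Plekhh1 332 to 389 against 1.99 to 13.0 CPM (5.13). In none of these genes did the mature and the newly formed libraries overlap. The genes were picked for the largest gaps, so this follows largely from the choice. D7Ertd443e (5.52), Pstpip2 (4.35), 4930420G21Rik (4.28), Gm19500 (4.10), Anln (4.04) and Hapln2 (3.89) completed the 10 highest. Pstpip2 alone among the 10 was also at a like level in OPC nuclei, with 211 CPM there, so its difference from OPC nuclei was 0.26 (-0.09 to 0.55).

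A UMI of Hapln2 or of Anln was found in part of the members only. How far this reflects the few UMIs captured per nucleus was not tested. Hapln2 encodes a link protein that ties hyaluronan to proteoglycans at the node of Ranvier, and Anln encodes anillin, a scaffold of septins and actin that is also found in myelin. Hapln2 had 40.8, 41.6, 68.3, 162, 69.7 and 177 CPM in the mature nuclei of libraries 1 to 6. In newly formed nuclei it had 0 CPM in 5 libraries and 4.34 CPM in library 6, and in OPC nuclei it had no UMI at all. Over all libraries its level was at least 63.7-fold higher than in OPC nuclei, taking 3 UMIs over all OPC nuclei as the floor. Anln had 88.9, 92.9, 109, 167, 122 and 147 CPM in mature nuclei against 0 to 6.07 in newly formed ones. With nuclei thinned to 2000 UMIs, Hapln2 was seen in 11.4% of members and 0.485% of microglia nuclei, and Anln in 17.4% and 1.87%. Over the libraries the members' share ran from 7.38 to 30% for Hapln2 and from 14.0 to 31.7% for Anln. The share was higher in members for both genes.

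Genes of the compact myelin list divided by stage. The list is broad and also holds proteins not confined to compact myelin. Among them are Ermn and the 3 genes counted as lower, Bcas1, Sirt2 and Cd9. Of 15 members of that list that passed the filter, 4 were higher than in newly formed nuclei, 3 were lower and 8 were neither, with a median over genes of 0.77. Mobp, a small basic protein of the myelin major dense line, had 2396 to 3487 CPM in mature nuclei. In newly formed nuclei it had 326, 411, 147, 21.2, 431 and 152 CPM in libraries 1 to 6 (median difference 3.74, range 2.72 to 6.52). Ermn, a cytoskeletal protein of the late oligodendrocyte, had 87.3 to 129.8 against 0 to 13.3 CPM (3.81). Mal, a sorting protein of myelin lipid rafts, had 147 to 239 against 9.93 to 34.6 CPM (2.93), and the tetraspanin Tspan2 464 to 803 against 78.9 to 179 CPM (2.36). All 4 kept mature and newly formed libraries apart, which follows largely from counting only genes that were 2-fold apart in each library.

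Mbp differed less between the stages. It had 4598 CPM at the lowest and 7901 at the highest library in mature nuclei and 1332 to 4571 in newly formed ones, a median difference of 1.12 (0.76 to 1.78), so it was above 0 in each library but did not reach 2-fold in all. Microglia nuclei had 337 to 1659 CPM of Mbp and astrocyte nuclei 605 to 3117, and what part of the newly formed level was RNA from other cells was not tested. Cldn11, the claudin of the myelin tight junction, had a difference of 0.99 (0.84 to 1.41). Bcas1, an early marker of myelinating cells, was lower at 479.6 to 578 against 2861 to 3707 CPM (-2.58). The deacetylase Sirt2 (-1.23) and the tetraspanin Cd9 (-1.93) were lower too. Against OPC nuclei 9 of the 15 were higher and none lower, among them Mobp (5.34), Tspan2 (4.68) and Cldn11 (4.07).

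**Figure D2:**
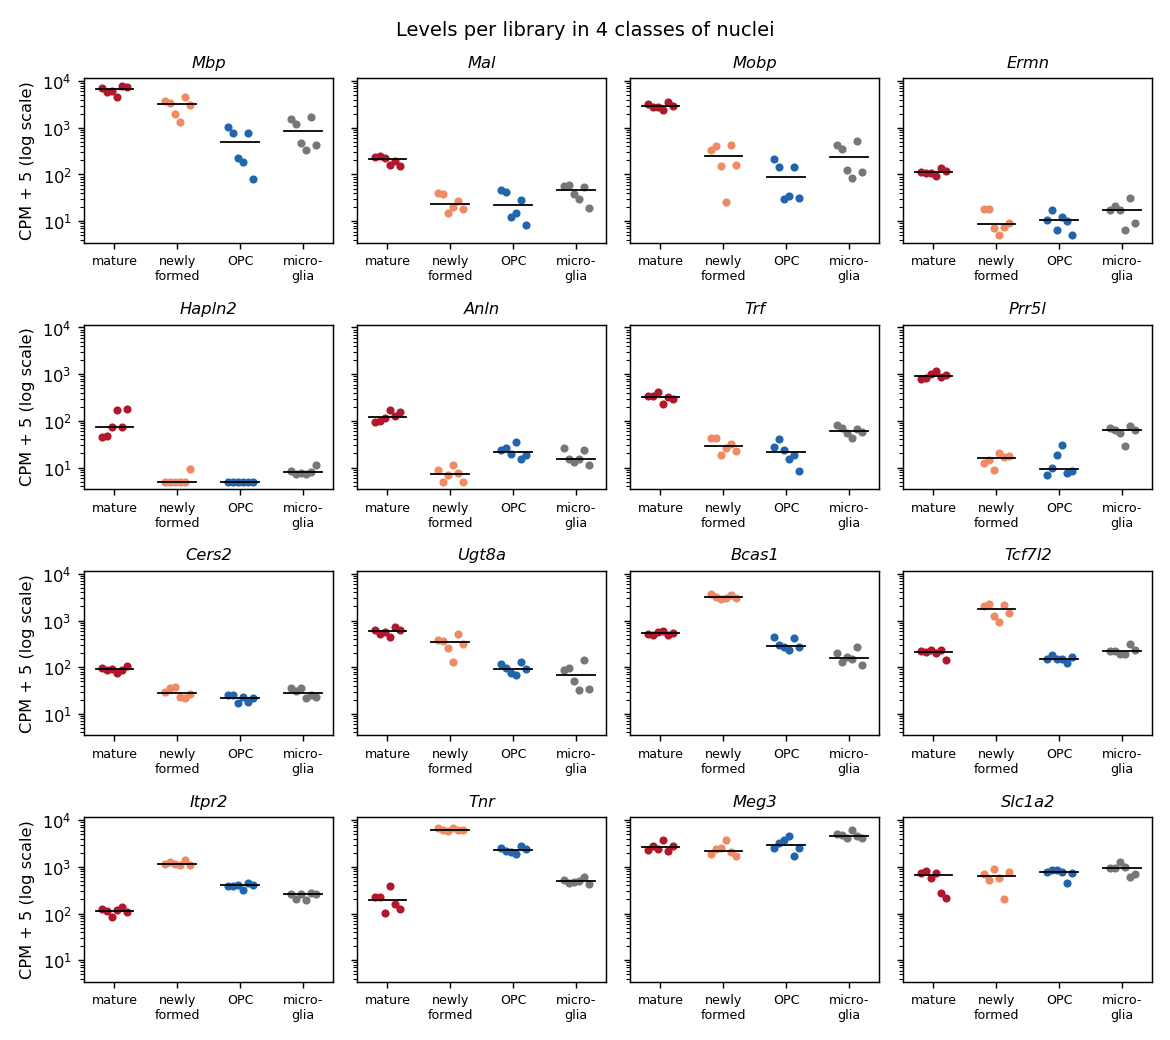
CPM + 5 on a log axis (y) for 16 genes in mature, newly formed, OPC and microglia nuclei (x), with 1 point per library and a bar at the median. Hapln2, Anln, Trf and Prr5l had been counted as 2-fold higher in each library. Their newly formed level in each library lay below that of any library of mature nuclei, which follows largely from that choice. The newly formed median of Mbp was 3258 CPM, and Meg3 and Slc1a2 were as high or higher in microglia nuclei.

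Genes of axon contact and the paranode showed both patterns. Of 15 that passed the filter, 4 were higher than in newly formed nuclei and none lower (median over genes 0.40). They were Hapln2, Ninj2, which encodes an adhesion protein, Tmem98, which binds MYRF, and Ank3, which encodes ankyrin-G. Ank3 had 2900.3 to 4710.2 CPM in mature nuclei and 1180.3 to 1281 in newly formed ones (1.72), and Ninj2 254 to 372 against 19.9 to 69.8 CPM (2.62). Nfasc, whose glial form holds the paranode, went the other way in each library, with 1491 to 2276 against 3102 to 4606 CPM (-0.99, -1.11 to -0.60), short of 2-fold in all. It was higher than in OPC nuclei (3.51).

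For the lipid genes of myelin the gap to newly formed nuclei was smaller than the gap to OPC nuclei. Among 10 galactolipid genes that passed the filter, 1 was higher than in newly formed nuclei, 6 lay above 0 in each library and none was lower (median 0.57). Of all 7651 genes tested, 1044 lay above 0 in each library (13.6%). The 1 was Cers2, the ceramide synthase for very long acyl chains, at 69.8 to 100.1 against 17.2 to 31.8 CPM (1.69). Ugt8a, which makes galactosylceramide, had 431 to 715 against 124 to 514 CPM (0.84, 0.47 to 1.75). Gal3st1, the sulfatide synthase (0.60), and Fa2h, the fatty acid 2-hydroxylase (0.53), were also above 0 in each library. Against OPC nuclei 6 of the 10 were higher, with Elovl7 at 3.83, Fa2h at 3.25 and Ugt8a at 2.58.

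In sum, cholesterol genes lay above the newly formed level in each library. Of 20 that passed the filter, none was 2-fold higher than in newly formed nuclei in all libraries and none lower, yet 13 lay above 0 in each library, against 13.6% of all genes tested, with a median over genes of 0.72. The summed list had 1213 to 1592 CPM in mature and 679.7 to 1002 in newly formed nuclei, a median difference of 0.76 (0.54 to 1.09). Single genes were Nsdhl (1.14, 0.83 to 2.44), Idi1 (1.27, 0.75 to 1.74) and Srebf2, the regulator of the pathway (0.67, 0.56 to 0.87). Against OPC nuclei 4 of 20 were higher, among them Msmo1 (1.66), Nsdhl (1.54) and Hmgcs1 (1.53).

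Sterol transport and lysosome genes lay on both sides of 0. Of 16 that passed the filter, 1 was higher than in newly formed nuclei and none lower, with a median over genes of -0.04. The 1 was Lipa, the lysosomal acid lipase that frees cholesterol from its esters, at 26.1, 29.9, 54.7, 57.4, 40.3 and 44.2 CPM in the mature nuclei of libraries 1 to 6 against 4.34 to 12.1 in newly formed nuclei (1.64, 1.09 to 2.40). Npc1 differed by 0.19 (-0.58 to 0.75) and Npc2, which hands cholesterol to NPC1, by 0.63 (0.20 to 0.91). Npc1 had 33.3 to 91.1 CPM in newly formed nuclei and 55.7 CPM in OPC nuclei. Abca2, a lipid transporter of the lysosome membrane, had 118 to 152 against 21.7 to 73.9 CPM (1.17, 0.64 to 2.30), and it was higher than in OPC nuclei (2.37), as was Tfeb, the regulator of lysosome genes (2.15).

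Most transcription factors of the list were not 2-fold apart. Of 15 that passed the filter, 2 were higher than in newly formed nuclei, 2 lower and 11 neither (median over genes -0.49). Nkx6-2, a homeobox factor of late oligodendrocytes, had 24.9 to 41.7 against 0 to 7.58 CPM (2.41), and Zfp536 1736 to 2448 against 319 to 673 CPM (1.93). Nkx2-2, a factor of early differentiation, was lower at 0 to 6.40 against 46.1 to 87.5 CPM (-2.83), and so was Tcf7l2, an effector of Wnt signalling, at 135 to 233 against 907 to 2248 CPM (-3.22). Myrf overlapped between these stages, with 79.5 to 117 against 69.5 to 132 CPM (0.11, -0.31 to 0.59), and stood well above OPC nuclei (3.58). St18 was also shared with newly formed nuclei (0.45) and far above OPC nuclei (6.52).

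Among the genes lowest against newly formed nuclei, Tnr, which encodes the matrix protein tenascin-R, had 100.2 to 389 CPM in mature nuclei and 6003 to 6839 in newly formed ones (-5.09). Arhgap24, a GTPase-activating protein, had 17.7 to 54.9 against 911 to 1283 CPM (-5.29), and Ppfibp1, a liprin, 14.7 to 49.9 against 846 to 1217 CPM (-4.57). Sox6, which restrains differentiation, had 32.4 to 118 against 1621 to 1848 CPM (-4.23). Gm13187, Gm36988, Gm13052, Tmem108, Epb41l2 and Frmd4a filled the rest of the 10 lowest, from -4.90 to -3.87. Of 16 early myelin-forming genes, 6 were lower and 1 higher, the higher one being Ctps, a CTP synthase (67.7 to 235 against 24.3 to 47.7 CPM, 2.00). Fyn, the kinase that relays axon contact, had 188 to 256 against 2504 to 2961 CPM (-3.63), and Itpr2, a calcium channel of the endoplasmic reticulum, 77.5 to 136 against 1072 to 1391 CPM (-3.31). Against OPC nuclei the lowest genes were Gm38505, Emid1, Lhfpl3, Cacng4, Xylt1, Megf11, Nxph1, Gm4876, Myt1 and Vcan, from -4.64 to -4.01.

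Late genes were higher in the main, but the last ones were barely detected. Of 16 late genes that passed the filter, 10 were higher than in newly formed nuclei and 1, Sgk1, was lower. The iron carrier Trf had 222 to 415 CPM against 13.9 to 38.4 (3.22), the actin-severing protein Gsn 279 to 374 against 17.4 to 51.2 (2.66), carbonic anhydrase Car2 57.4 to 113 against 3.03 to 30.4 (2.09) and the lipocalin Apod 97.3 to 174 against 26.04 to 43.7 (1.82). Pcdh9, a protocadherin, made up most of the summed list, with 19100.4 to 24240.1 against 3702 to 5065 CPM (2.37), so the sum is mainly a reading of that gene. Of the genes below the filter, Klk6, a peptidase of late adult oligodendrocytes, had 0 to 5.89 CPM in members and Il33 1.83 to 4.44 CPM, against 5.22 CPM of Il33 in microglia nuclei.

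Of 13 OPC genes that passed the filter 6 were lower than in newly formed nuclei and none higher, and 12 of 15 were lower than in OPC nuclei. Of 5 iron genes, Trf was higher in both comparisons and the other 4 were neither. The remaining lists held few genes past 2-fold. Among 15 genes of metabolic and ion support that passed the filter, Edil3 was higher than in newly formed nuclei (1.69) and the glutamate transporter gene Slc1a1 lower (-2.96), with a median over genes of 0.27. The potassium channel gene Kcna1 lay above 0 in each library (1.59, 0.63 to 2.02) and was higher than in OPC nuclei (2.35). Of 9 genes of H3K27 methylation, none was 2-fold apart in all libraries in either comparison (median -0.14). Ezh2, the methyltransferase, had 103 to 137 against 63.6 to 113 CPM (0.44, -0.12 to 1.05), and Kdm6b, a demethylase of the same mark, 26.5 to 40.0 against 63.7 to 82.2 CPM (-1.03, -1.31 to -0.79). Of 26 neuronal genes none was higher and 2 were lower, Csmd1 (-1.58) and Gria2 (-1.52).

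**Figure D3:**
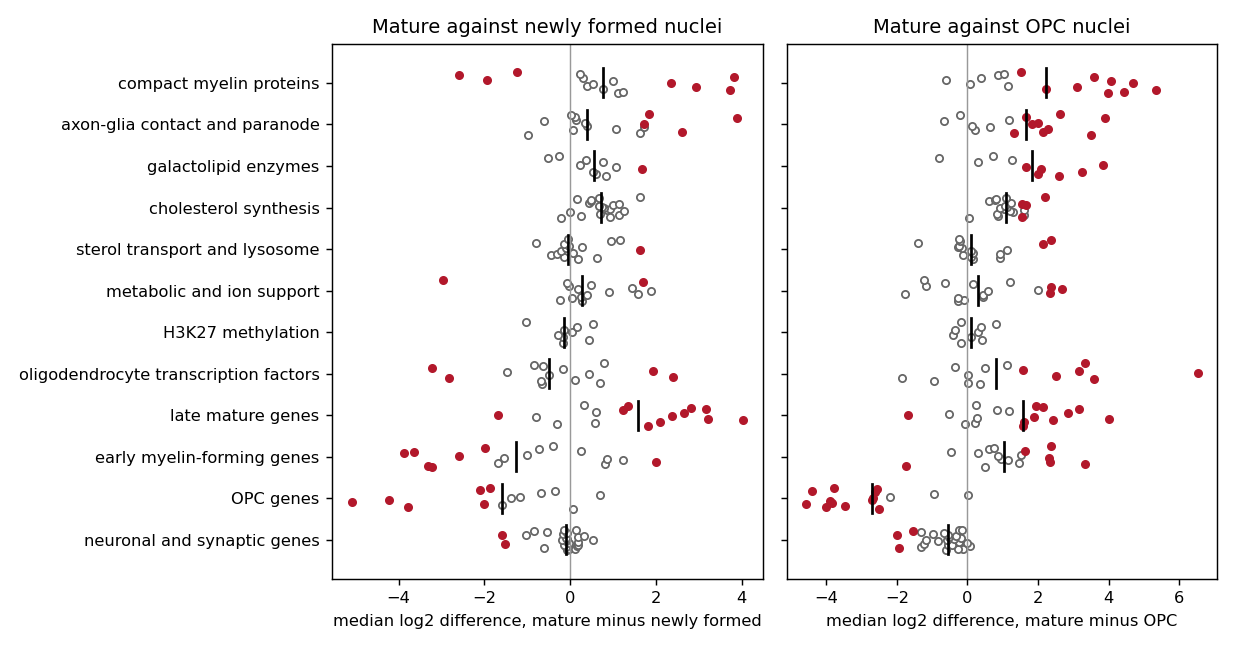
Median log2 difference over 6 libraries (x axis) for each gene of 12 lists (y axis), against newly formed nuclei on the left and OPC nuclei on the right. Filled points were at least 2-fold apart in the same direction in all libraries and black bars are list medians, which for cholesterol synthesis were 0.72 and 1.10 and for early myelin-forming genes -1.27 and 1.05.

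The early and late lists were also counted in single nuclei. After thinning to 2000 UMIs, members held a median of 5 UMIs of the early list and 52 of the late list, against 49.5 and 9 in newly formed nuclei. Pcdh9 made up most of the late sum in members, while Frmd4a had 864 of the 3365 CPM of the early list there, and without Frmd4a and Pcdh9 the medians were 3 early and 4 late UMIs in members and 25 and 2 in newly formed nuclei. The late count without Pcdh9 overlapped, its 90th percentile in newly formed nuclei being 5 UMIs, above the median of members. The overlap was counted on the full lists, with Frmd4a and Pcdh9, at limits of 17 early and 17 late UMIs. Of 1277 members, 65 (5.09%) had as many early UMIs as the 10th percentile of newly formed nuclei or more, 153 (11.98%) had no more late UMIs than their 90th percentile, and 18 (1.41%) met both. The late part of these counts is mainly a reading of Pcdh9, and the overlap without it was not counted.

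**Figure D4:**
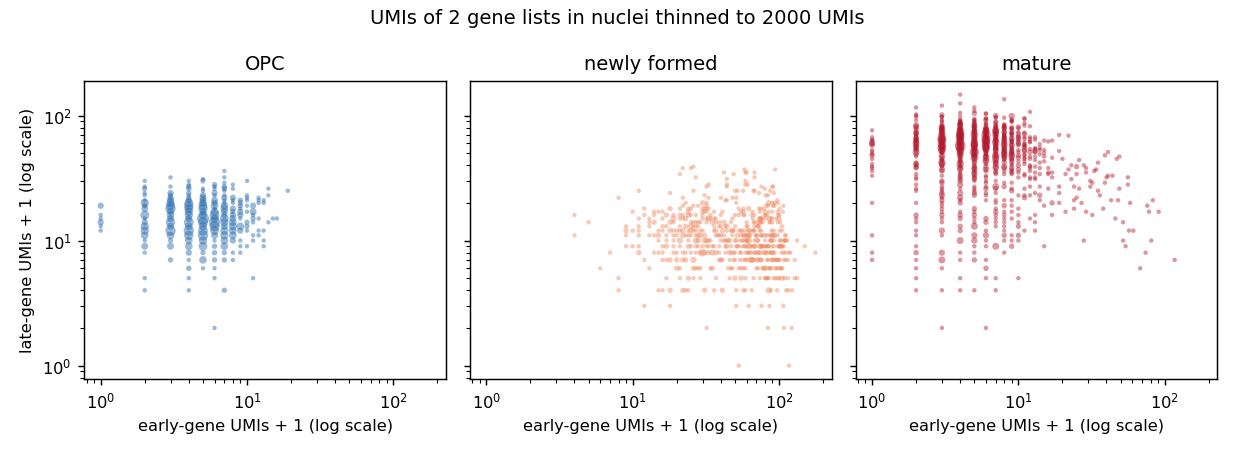
UMIs + 1 of the early list (x) against UMIs + 1 of the late list (y), both on log axes, for OPC, newly formed and mature nuclei thinned to 2000 UMIs, with larger points where more nuclei coincide. Members sat high and to the left, at medians of 5 early and 52 late UMIs, with a tail toward the newly formed nuclei.

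The members were not uniform. They were split into the 365 with an Anln UMI and the 974 without, because such a UMI was found in a minority. This split was chosen after its values were seen. A nucleus without an Anln UMI may still have held Anln RNA that was not captured. The 2 sets had median depths of 4809 and 4855.5 UMIs. The share with an Anln UMI was 23.9, 25.1, 25.3, 40.0, 30.8 and 34.9% in libraries 1 to 6. Of 7439 genes, 61 were at least 2-fold higher over all libraries and higher in each (0.82%), and 77 were lower (1.04%).

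Nuclei with Anln were higher in some late genes and not in most of that list. Of 15 tested late genes 2 were higher and none lower, and without Pcdh9 the summed list was higher in each library (2404 against 1941 CPM). Gsn had 362 CPM with Anln and 321 without, Ppp1r14a 77.1 and 76.8 CPM, and Qdpr 26.02 and 39.6 CPM, the last being below in each library. Hapln2 had 157 CPM in them and 24.4 CPM in the rest, 4930420G21Rik 231 and 38.5, the raft protein gene Rftn1 124 and 26.7, the myosin gene Myo1e 287 and 91.1, and Trf 534 and 242 CPM. Each of these was higher in all 6 libraries. Other genes were lower. The noncoding gene 9630013A20Rik had 71.3 CPM with Anln and 731 CPM without, Casr, the calcium-sensing receptor, 5.30 and 64.4, Tcf7l2 49.2 and 272, Prom1 29.4 and 193, Ctps 54.5 and 241 and Itpr2 40.0 and 144 CPM, all lower in each library. Of the 16 early myelin-forming genes 9 were lower and none higher. Of 15 tested compact myelin genes none was either, and Mbp had 6937 and 6619 CPM. The paranode list was lower in sum in each library, 7478 against 11447 CPM, with Nfasc (827 and 2582 CPM) and Ank3 lower and Hapln2 higher among its 15 tested genes. Astrocyte and endothelial markers were also lower in each library, 1556 against 1928 and 240.0 against 355 CPM, and their part in the split was not tested.

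**Figure D5:**
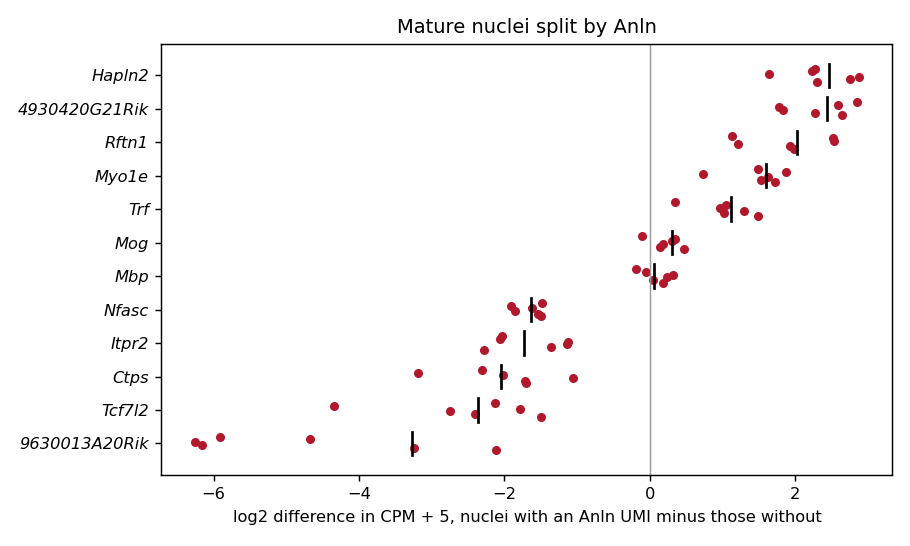
Log2 difference in CPM + 5 between mature nuclei with and without an Anln UMI (x axis) for 12 genes (y axis), with 1 point per library and a black bar for the sum over libraries. Hapln2 and Trf lay to the right of 0 and Tcf7l2 and 9630013A20Rik to the left in all 6 libraries, while Mbp lay around 0.

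The members were also split by Opalin, a marker of the rule. The 637 members with an Opalin UMI were deeper than the 702 without (medians 5575 and 4249.5 UMIs). Of 7518 genes, 5 were higher in them by the same criterion (0.0665%) and 26 lower (0.346%). Ctps had 278 CPM with Opalin and 89.9 without, and Fam214a 1480 and 540 CPM. In each library the early list was lower in sum with Opalin (2800 against 3993 CPM), and the compact myelin list was higher (18980 against 15031 CPM), with 4 early genes lower, 1 higher, and no late or compact myelin gene past the criterion. The summed late list followed Pcdh9. It was higher with Opalin in each library (27714 against 20739 CPM), but without Pcdh9 it was lower in 5 of 6 libraries (1992 against 2381 CPM). Without Frmd4a the early list was lower in 5 of 6 libraries (2305 against 2718 CPM). Tcf7l2 (117 and 313 CPM) and Hapln2 (34.6 and 91.6 CPM) were both lower in nuclei with Opalin, in each library. The median gene differed by -0.12 on the log2 scale. Neuronal genes (13614 against 19512 CPM) and endothelial markers (264 against 388 CPM) were lower with Opalin in 5 of 6 libraries, and fibroblast and pericyte markers (106 against 152 CPM) in each. Astrocyte markers had 1385 against 2311 CPM, with 3 libraries on each side, and microglia markers 87.2 against 110.7 CPM, lower in 4 of 6. Opalin UMIs also count toward the marker sum of the rule. Mag (1025 against 757 CPM) was higher with Opalin in each library, Mog (1239 against 980 CPM) in 5 of 6 and Aspa (347 against 322 CPM) in 4 of 6. Members at the limit of 3 UMIs had 2873 CPM of Mbp and 5682 of Meg3, against 7143 and 2187 CPM at 5 or more. This split was also chosen after its values were seen. The part of depth, of the marker sum, of neuronal genes and of other cells' markers in the split was not tested.

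The Enpp6 limit of the rule let in 277 members with 1 Enpp6 UMI, which were compared with the 1062 with none. Of 7410 genes, 16 were higher by the same criterion (0.216%) and 13 lower (0.175%), at median depths of 5326 and 4746 UMIs. The early list was higher in sum in each library (4883 against 2922 CPM), with 4 of 16 genes higher and 1 lower. The late list had 24064 against 24513 CPM, with 3 libraries on each side and 1 of 16 genes higher, but without Pcdh9 it was higher in each library (2401 against 2110.4 CPM). The sums without Pcdh9 or Frmd4a were added after the data were seen. Tcf7l2 (424 and 147 CPM), Itpr2 (208 and 87.8 CPM), Anln (189 and 80.8 CPM) and Hapln2 (114 and 46.2 CPM) were higher in nuclei with an Enpp6 UMI, in each library. Fam214a (562 and 1173 CPM) was lower. Mbp had 7168 and 6574 CPM. The cholesterol list was higher in sum in each library (1702 against 1437 CPM), with none of 20 tested genes past the criterion. The paranode list was lower in sum in each library (9357 against 10619 CPM), with 1 of 15 tested genes higher and none lower. Microglia markers were lower in each library, 56.9 against 110.5 CPM. Endothelial markers had 214 against 354 CPM, lower in 4 of 6 libraries with 1 of 8 tested genes called lower, astrocyte markers 1766 against 1840.4 CPM and fibroblast and pericyte markers 114 against 132 CPM, both lower in 5 of 6, and the part of these markers was not tested. The rule had removed nuclei with more than 1 Enpp6 UMI, so this split covers only a cut part of the Enpp6 range. The part of that limit and of depth in these differences was not tested. Like the others, this split was chosen after its values were seen.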

How the data were processed

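Single-nucleus RNA-seq libraries (10x Genomics Chromium, 3′ tags) had been made from P16 mice, 3 WT and 3 Npc1-/-. Per the file headers, the deposited matrix holds raw UMI counts, whole numbers that were not normalized, written by cellranger 6.0.0. The submitters' processing notes name Cell Ranger 2.1.1 and mm10, and the study's methods name STARsolo with GRCm38; the sources used here do not say which made this matrix. No filter or imputation of the authors was applied to these counts here.

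UMIs were summed per class and library and divided by the total to give CPM. Genes with at least 20 CPM in either class were compared on log2(CPM + 5), a scale that understates changes of low genes. The genes named were those of the rule, of fixed lists, and the 10 highest and 10 lowest in each comparison. The members and lists were chosen with earlier results of these data known. Exact 95% binomial intervals and a floor of 3 UMIs for a count of 0 cover counting error only. The calculation was run on simulated counts with counting error only and the same true difference in every library. These held no other spread between libraries, no RNA from other cells and no choice of nuclei by markers. They therefore check the arithmetic and not those features of the data. Python 3.11.15, numpy 2.4.6, scipy 1.17.1 and pandas 2.3.3 were used. Of the deposited barcodes 11 were left out for a mitochondrial share at or above 10%. No doublet caller was run; alternatives without nuclei that held other cells' markers or were unusually deep were computed instead. Values of some list genes are not reported here.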

Additional observations from a re-analysis of the deposited data

How the results depend on the processing

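No paired analysis was possible because the labels share replicate numbers between the genotypes but no library can be tied to a mouse. The number of members was 865 with neuronal UMIs at 0 and 661 without nuclei holding 2 or more UMIs of microglia, endothelial or fibroblast and pericyte markers (astrocyte markers were not used), and 1062 to 1874 under the other limits. Taking the difference of the sums over all libraries, which asks for 2-fold once rather than in each library, gave 457 higher and 431 lower genes against newly formed nuclei and 700 and 836 against OPC nuclei. Every other alternative kept the counts within 1.5 times, and leaving out 1 library gave 233 to 251 and 208 to 258 against newly formed and 411 to 456 and 345 to 455 against OPC nuclei. No value that lay on the same side of 0 in all libraries changed direction under these alternatives.

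List values that moved by more than the spread over libraries were these, against newly formed nuclei first. Late genes were 2.35 with neuronal UMIs at 0 and 2.30 without deep nuclei, early genes -3.23 without nuclei with other cells' markers, fibroblast and pericyte markers -0.37 with a marker sum of at least 5 and -0.30 without nuclei with other cells' markers, and H3K27 methylation 0.0104 after thinning. Against OPC nuclei, sterol transport was 0.24 centred on the median gene and 0.28 after thinning, late genes 1.91 centred, early genes 0.31 without nuclei with other cells' markers, neuronal genes -1.27 with neuronal UMIs at 0 and -1.20 without deep nuclei, endothelial markers -0.78 by sums, -0.92 with neuronal UMIs at 0, -0.0159 without deep nuclei and -0.13 after thinning, and fibroblast and pericyte markers -0.20 without deep nuclei. The cause of these shifts was not tested. Libraries 3, 4 and 6 gave 63 to 79 members each, which limits genes of low level there.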

Other observations

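Anln and Itpr2 were counted beside Enpp6, the gene that marks newly formed cells and on which the rule sets a limit. Among nuclei that met every limit but that on Enpp6, an Anln UMI was found in 22.5% (20.03 to 25.1%) of 1062 with 0 Enpp6 UMIs, 45.5% (39.5 to 51.6%) of 277 with 1, 52.8% (44.3 to 61.2%) of 142 with 2 and 42.0% (34.7 to 49.5%) of 181 with 3 or more. An Itpr2 UMI, from the early list, was found in 24.95, 32.9, 40.8 and 56.4% of the same nuclei. Median depth was 4746, 5326, 5517 and 6054 UMIs in these sets, and its part was not tested. Both genes were seen together in 3.95, 9.03, 11.3 and 8.84% of them. The libraries differed. With 0 Enpp6 UMIs the Anln share was 20.06, 21.1, 22.6, 36.4, 25.5 and 17.8% in libraries 1 to 6, and with 3 or more it was 26.7, 38.6, 14.3, 66.7, 55.1 and 100%, so that it was lower in library 3 and higher in the other 5. The latter shares rest on 45, 70, 7, 3, 49 and 7 nuclei. Among members, 298 nuclei held Anln and no Itpr2, 289 Itpr2 and no Anln, 67 both and 685 neither. Hapln2 in these sets was 160, 17.6, 144 and 27.8 CPM, and Tcf7l2 40.1, 611, 83.9 and 104 CPM. These sets were chosen after their values were seen.

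The mature share was 2.88, 2.72 and 2.71% in libraries 1, 2 and 5 and 0.534, 0.574 and 0.767% in libraries 3, 4 and 6. This order of libraries was made from the mature shares after they were seen. Newly formed nuclei had 1.05, 1.20 and 1.44% against 0.588, 0.509 and 0.499% in the same order. OPC nuclei had 0.915, 1.01 and 1.04% against 0.906, 0.599 and 0.828%, so that libraries 1 and 3 were nearly alike. The sources used here do not say which mice these were, and no genotype can be read from this order.

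The letters CTGGNAC stood in 30 of 174 promoters of genes higher than in newly formed nuclei (17.2%) and in 28 of 141 of the lower ones (19.9%), against 14.1% of 5987 tested genes with a promoter. ACAAAG stood in 12.1 and 15.6%, against 11.0%.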
